A study of Mus musculus with 6 samples.

Results

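The carbonic anhydrases are a gene family, and 10 of its genes (Car2, Car3, Car4, Car5b, Car6, Car7, Car8, Car9, Car13 and Car14) were followed here, out of 54532 genes counted in mouse epididymal fat. They were taken by gene name, through the Ensembl identifiers of the counts and GENCODE M21, with earlier results of these data known. A further 6 family genes are described below. The fat came from male C57BL/6J mice, fed from 4 weeks of age for 16 weeks with a normal diet of 4.5% fat (ND, 3 libraries) or a high-fat diet of 60% fat (HFD, 3 libraries). No drug had been given to either group, and RNA-Seq was done on whole fat. The study asked whether obese fat holds cells like those that lie beside tumors. The labels do not say whether the samples were separate mice, so p-values measure the spread between these samples only.

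Carbonic anhydrases interconvert carbon dioxide and water with bicarbonate and a proton, and most hold a zinc ion in the active site. The family is spread over the cell: Car2, Car3, Car7 and Car13 are cytosolic, Car5b lies in mitochondria, Car4, Car9 and Car14 are bound to the cell surface, Car6 is secreted, and Car8 has lost its catalytic activity. In fat, Car3 is known as one of the most abundant cytosolic proteins of the adipocyte, the mitochondrial enzyme supplies bicarbonate to carboxylases that feed lipid synthesis, and Car9 is a textbook target of the hypoxia-inducible factors.

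Since low oxygen is the best known inducer of Car9, the promoter windows of the family were read from RefSeq (build GRCm38.p6), 250 bases upstream of each RefSeq start. Of the 10 genes, 6 had a window (Car4, Car5b, Car6, Car7, Car9 and Car14). The core of the hypoxia response element, ACGTG, or CACGT where it lies on the other strand, was present in 16.6% of all 32851 windows, and in those of Car9, Car6 and Car14. The 30 bases around the first match are shown with the matching bases in capitals. In Car6 the motif is found on both strands in overlapping positions, which makes the capitals a run of CACGTG. The match of Car9 and that of Car6 lie inside the gene as GENCODE draws it, since its start is upstream of the RefSeq start, and that of Car14 has 1 of its bases upstream of the GENCODE start. A match describes the letters and not a binding site.
Car9, chr4:43506996-43507025, plus strand: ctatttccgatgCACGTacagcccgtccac
Car6, chr4:150201267-150201296, minus strand: gaggaggtgaggCACGTGcacaggcaccaa
Car14, chr3:95904686-95904715, minus strand: agcccaggcaccacccccctcctCACGTac

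The windows of Car4, Car5b and Car7 did not hold these letters. 2 longer stretches are shown because Car9 and Car5b had the highest and the lowest diet difference among the tested genes with a window. Both lie upstream of the RefSeq and of the GENCODE start, neither holds the motif, and there are no capitals in them.
Car9, chr4:43506776-43506965, plus strand: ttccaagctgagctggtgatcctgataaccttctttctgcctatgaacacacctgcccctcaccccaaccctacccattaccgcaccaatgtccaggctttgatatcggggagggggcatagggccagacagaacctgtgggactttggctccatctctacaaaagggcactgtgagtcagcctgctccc
Car5b, chrX:164028011-164028260, minus strand: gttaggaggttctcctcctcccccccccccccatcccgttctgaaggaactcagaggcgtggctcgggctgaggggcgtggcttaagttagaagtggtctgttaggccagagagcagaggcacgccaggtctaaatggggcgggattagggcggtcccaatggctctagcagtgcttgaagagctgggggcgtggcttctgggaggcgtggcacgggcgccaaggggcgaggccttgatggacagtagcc

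The libraries held between 16996896 and 18859320 counts, and 3 counts, used as the floor, stood for 0.149 to 0.180 CPM (library-size-scaled counts, with edgeR's TMM factors). This floor and the intervals on counts cover counting error only. All 15 adipocyte markers were present, and their summed level was 50600 to 65240 CPM on ND against 27210 to 48480 CPM on HFD, lowest in HFD replicate 3. Of these markers 4 (Cfd, Retn, Adrb3 and Slc2a4) were lower on HFD and none was higher. Over all genes tested, edgeR's test called 6.04% lower. Fabp4 and Lpl had the highest mean CPM over all libraries. Cfd had 13480, 15620 and 11710 CPM on ND against 1158, 2501 and 162 CPM on HFD. It made the largest difference to the sums, which were not taken without it. Between the nearest libraries, ND replicate 3 and HFD replicate 2, Cfd differed by more than the sums did. The gap between the ranges of the diets therefore rests on Cfd. The 15 macrophage markers (Lyz2 and C1qb with the highest mean CPM) summed to 2067 to 2176 CPM on ND against 4362 to 9574 CPM on HFD, highest in HFD replicate 3. Of them 10 were higher on HFD, where edgeR's test called 9.85% of all genes tested higher. ND replicate 3 stood apart: it held 64.9% of the counts of 12 epithelium markers (Krt19 and Krt8 with the highest mean CPM) and 71.8% of those of 12 motile cilium markers (Cfap43 and Foxj1 likewise), where an even share of 6 libraries would be 16.7%. The markers of the epididymis itself had 87 counts in all libraries together, with Lcn9 and Cst11 at 0. In whole tissue, fewer cells of a type and less RNA per cell cannot be told apart.

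Compared per length of transcript, 1 gene held nearly all of the family's RNA. On the FPKM scale the mean level of Car3 on ND was 6085 ± 731 (SD, n = 3), against 67.2 ± 12.8 for Car5b, 20.3 ± 1.6 for Car4 and 10.6 ± 2.5 for Car13. Car3 made up 98.2% to 98.5% of the summed FPKM of the 10 genes in the ND libraries and 95.8% to 98.2% in the HFD libraries. The values of these 4 genes did not overlap on ND. Below them came Car2 (3.27 ± 3.25) and Car7 (2.42 ± 0.18), which overlapped, then Car8 (0.495 ± 0.162), and then Car9 (0.226 ± 0.071), Car14 (0.188 ± 0.248) and Car6 (0.0410 ± 0.0209), each overlapping the next. On HFD the order kept Car3 at 2474 ± 1603 FPKM first, Car5b (29.3 ± 13.8) overlapped Car4 (19.3 ± 5.2), and Car9, at 1.61 ± 0.90 FPKM, lay between Car7 (1.76 ± 0.58) and Car2 (1.06 ± 0.07), overlapping both.

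**Figure D1:**
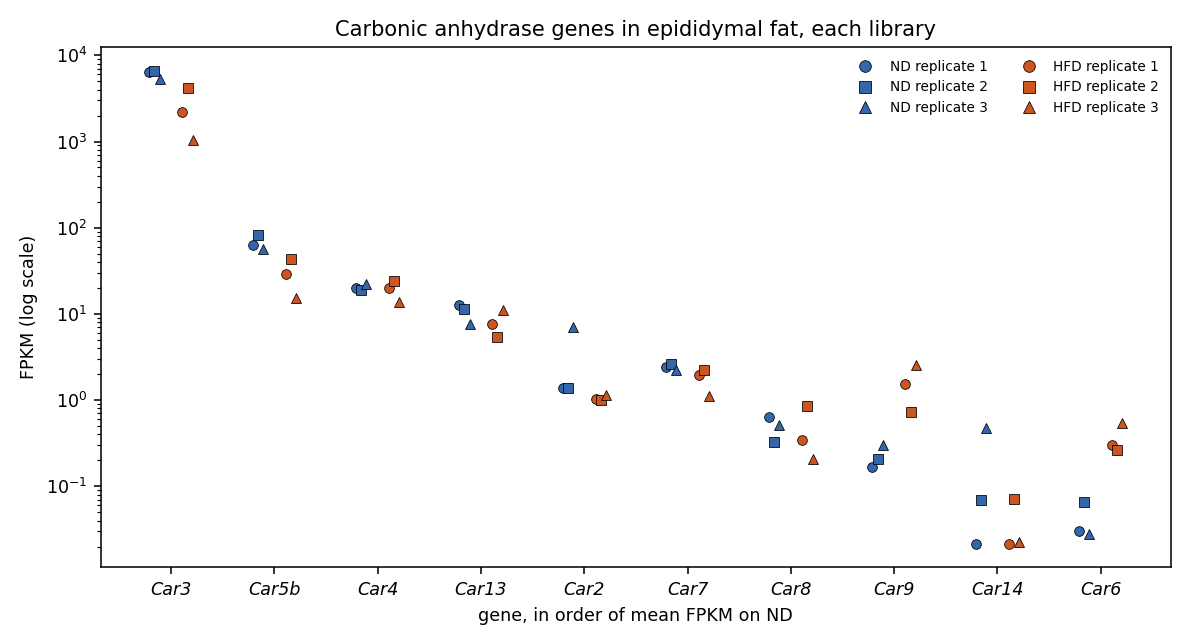
FPKM of the 10 carbonic anhydrase genes in each library (vertical axis, log scale), ordered by the mean on ND (horizontal axis), with ND in blue and HFD in orange and a symbol for each replicate. Car3 stands above all others in every library, and the HFD points of Car9 and Car6 lie above their ND points.

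Between diets, 8 of the 10 genes had enough counts to be tested. Car9 was higher on HFD, and no gene of the 10 was lower at an adjusted p-value under 0.05 by edgeR's quasi-likelihood test. This test called 9.85% of all 15751 genes tested higher and 6.04% lower. Without adjustment 4 of the 8 had p under 0.05, as did 34% of all genes tested. Car2, Car3 and Car5b were the 3 on the lower side, where 15.3% of all genes lay. DESeq2 called these 3 lower, together with 8.42% of the 18952 genes to which it gave an adjusted p-value. In 5 of the 8 the diets did not overlap, Car2, Car3, Car5b and Car7 being lower and Car9 higher in every HFD library, and 40.9% of all genes tested had no overlap. The median log2 fold change of the 8 genes was -0.41, with 7 negative values, and that of all genes tested was 0.01. No exact permutation test was made for single genes, because its smallest p with 3 samples a diet is 0.1.

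**Figure D2:**
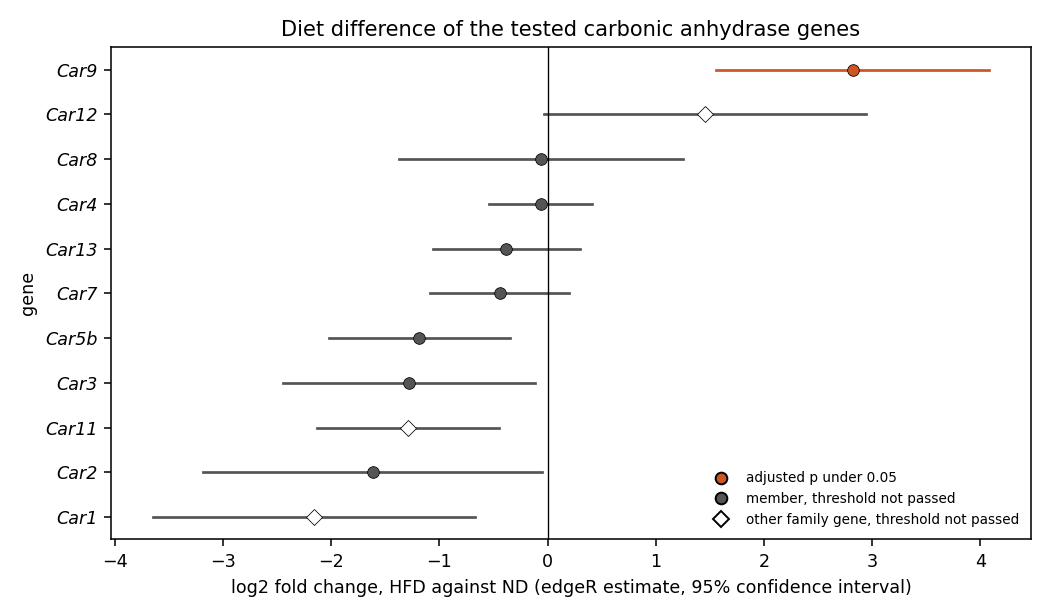
The edgeR log2 fold change of HFD against ND (horizontal axis) for each tested carbonic anhydrase gene (vertical axis), with its 95% confidence interval as a line. Filled circles are the 8 tested genes of the 10 and open diamonds 3 further family genes, and Car9 in orange is the gene that passed the threshold.

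Car3 (ENSMUSG00000027559, chr3:14863512-14872523 of GRCm38, plus strand) encodes a low-activity enzyme found in adipocytes and skeletal muscle, among other tissues. Reads counted for it were 334775, 318760 and 299472 over the ND replicates, compared with 113559, 198901 and 51638 over the HFD replicates. It took 1.59% to 1.85% of all counts on ND, compared with 0.644%, 1.17% and 0.291% on HFD. By FPKM it ranked 4, 5 and 4 among all genes on ND, compared with 9, 4 and 30 on HFD. Every HFD library lay below every ND library, and the HFD libraries differed among themselves by more than the ND libraries did. The mean level (SD, n = 3 for each diet) was 17140 ± 1953 CPM with ND feeding, compared with 7043 ± 4556 CPM with HFD feeding. The log2 fold change was -1.28 with a standard error of 0.50 and a 95% interval from -2.45 to -0.12, and the adjusted p-value was 0.118 by edgeR's quasi-likelihood test. Without HFD replicate 2, the HFD library with the most Car3, the log2 fold change was -1.90 and the adjusted p-value 0.0150, and DESeq2's Wald test on all libraries gave an adjusted p-value of 0.0128. These were the 2 of 17 settings in which Car3 passed. Leaving out any other library gave log2 fold changes from -1.40 to -0.93 with adjusted p-values from 0.133 (without HFD replicate 3) to 0.296 (without HFD replicate 1).

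Within the HFD libraries, Car3 was lowest where the adipocyte markers summed lowest (replicate 3) and highest where they summed highest (replicate 2). Set against the mean log2 CPM of the 15 adipocyte markers in the same library, Car3 stood 3.12, 3.02 and 3.01 log2 units above it on ND against 2.49, 2.87 and 2.26 above it on HFD. The means of these differed by -0.51 log2 units and did not overlap, so the level of Car3 was lower on HFD also relative to those markers, by less than on the CPM scale. Among the markers themselves 13 of 15 had a negative log2 fold change, and 4 had one lower than that of Car3. These 4 were Cfd (-3.42), Retn (-2.05), Adrb3 (-1.84) and Slc2a4 (-1.42). They lower the marker mean on HFD, so values relative to it depend on their inclusion. The comparison was not made without them. Skeletal muscle, another known source of Car3 protein, was represented by 12 markers that summed to 29.6 to 72.7 CPM on ND against 9.66 to 10.8 CPM on HFD, with Ckm and Myh4 at 0 in all libraries. Acta1 and Actn3 had the highest mean CPM of them, and Acta1 was the 1 muscle marker called lower (log2 fold change -3.21, adjusted p = 0.00918). Acta1 made the largest difference to these sums, with 22.05 to 65.36 CPM on ND against 3.165 to 5.714 CPM on HFD. Among the others, Mb and Myh1 were lower, and Tnni2 and Tnnt3 higher, in every HFD library than in any ND library. The sums were not taken without Acta1, so they do not show that the muscle markers as a set were lower on HFD. The part of muscle in the values of Car3 was not tested.

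**Figure D3:**
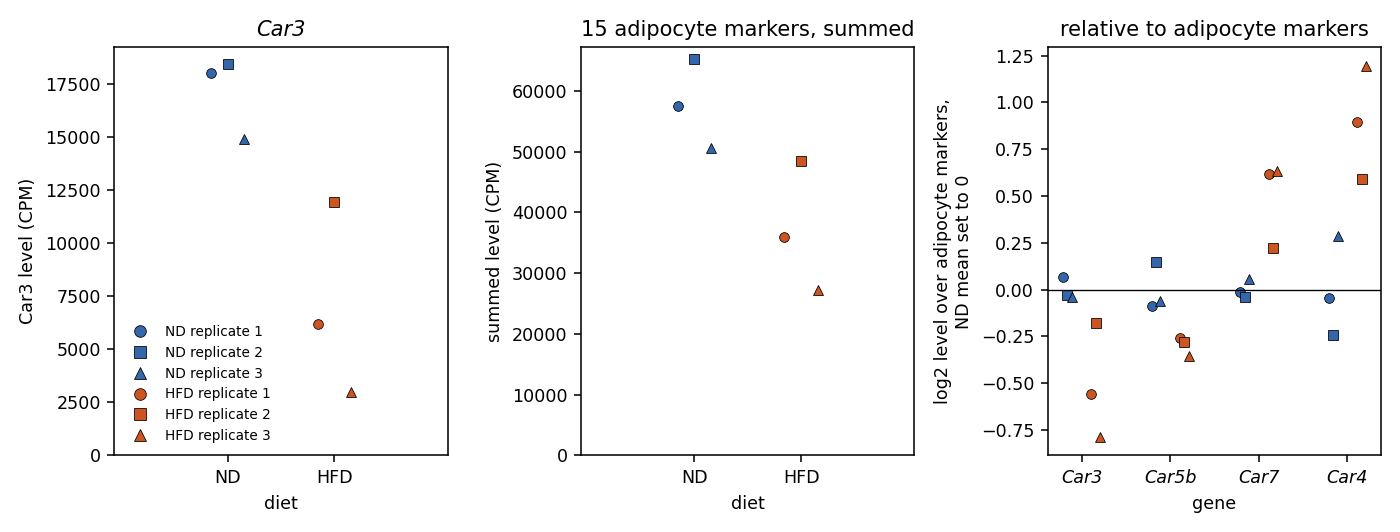
Left, Car3 in CPM by diet, and middle, the sum of 15 adipocyte markers on the same scale by diet, with 1 point per library. Right, the log2 level of Car3, Car5b, Car7 and Car4 over the mean of those markers in each library, with the ND mean of each gene set to 0. The HFD points of Car3 and Car5b lie below their ND points and those of Car7 and Car4 above. The marker mean includes Cfd, Retn, Adrb3 and Slc2a4, which lower it on HFD, and the sides were not tested without them.

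Car5b (ENSMUSG00000031373, chrX:163976822-164027997, minus strand) encodes the mitochondrial enzyme of most tissues and was the next most abundant of the family. Its level was 394, 507 and 358 CPM on ND against 186, 271 and 97.6 CPM on HFD, so all HFD libraries were below all ND libraries, with replicate 3 lowest as in Car3. The log2 fold change was -1.18 (SE 0.36, 95% interval -2.02 to -0.35), with an adjusted p-value of 0.0629 by edgeR's quasi-likelihood test, just outside the threshold. It passed in 4 of 17 settings, with DESeq2 (adjusted p = 0.00489), with the replicate number as a block (log2 fold change -1.29, adjusted p = 0.0337), and when HFD replicate 2 or HFD replicate 3 was left out (adjusted p = 0.0146 and 0.0450), and over all libraries left out in turn the adjusted p-value reached 0.177. Relative to the adipocyte markers it differed by -0.30 log2 units between diets, again with no overlap. On the FPKM scale Car5b was 0.983% to 1.24% of Car3 on ND and, on HFD, 1.02% to 1.48%, ranges that overlap while both genes differed in level between libraries. The liver form Car5a had 1 count on ND against 0 on HFD.

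Car2 (ENSMUSG00000027562, chr3:14886273-14900770, plus strand) encodes the fast cytosolic enzyme found in red cells, kidney, osteoclasts and many secretory epithelia. It had 61, 57 and 339 counts on ND against 46, 40 and 48 on HFD. ND replicate 3 alone held 57.4% of its counts (exact 95% binomial interval 53.3% to 61.4%). The log2 fold change of -1.62 (SE 0.67, adjusted p = 0.138 by edgeR's quasi-likelihood test) went to -0.40 without that library. Its mean level in the other ND libraries was 3.30 CPM, against 2.56 CPM on HFD, and the HFD values stayed below all ND values. Car14 (ENSMUSG00000038526, chr3:95897768-95904691, minus strand), a transmembrane enzyme with its active site outside the cell, showed the same library with 24 of its 33 counts, a share of 72.7% (exact interval 54.5% to 86.7%). Its other ND libraries had 1 and 3 counts and the HFD libraries 1, 3 and 1, near or at the floor, so it was not tested, and its exons overlap those of the far more abundant Aph1a on the opposite strand. The epithelium markers summed to 41.4, 41.0 and 327 CPM in the ND libraries and to 30.5 to 44.9 CPM on HFD, and the motile cilium markers to 12.3, 12.8 and 183 CPM on ND against 17.5 to 20.5 CPM on HFD. Their part in the values of Car2 and Car14 was not tested.

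**Figure D4:**
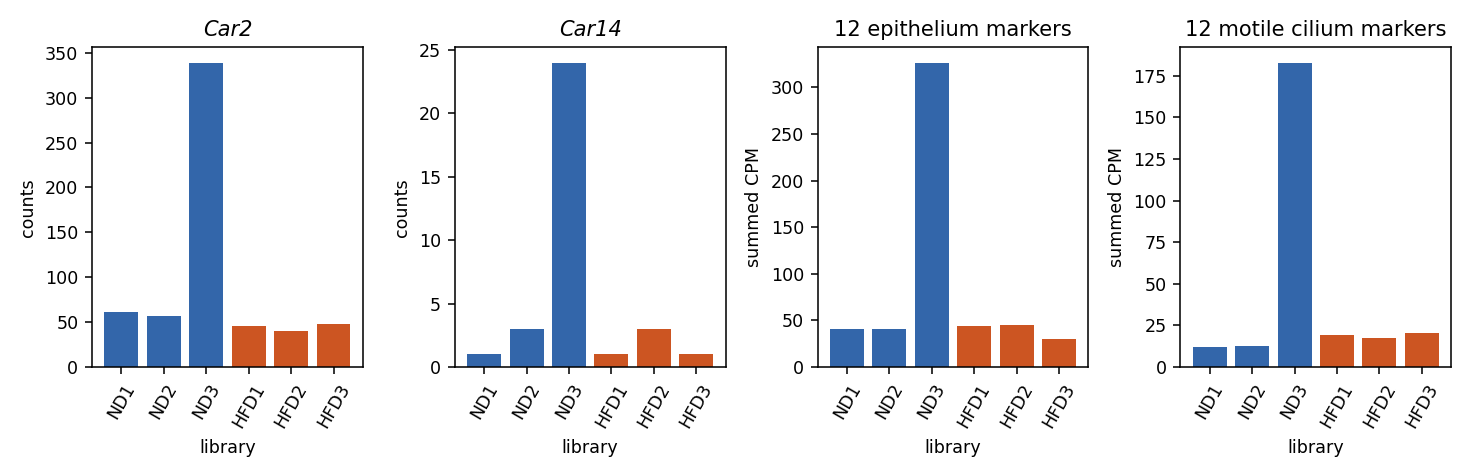
Bars, from 0, for each of the 6 libraries (ND in blue, HFD in orange): counts of Car2, counts of Car14, and summed CPM of the 12 epithelium and of the 12 motile cilium markers. ND replicate 3 has the tallest bar in each panel, with 339 counts of Car2 and 24 of Car14.

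The remaining cytosolic genes differed by less. Car7 (ENSMUSG00000031883, chr8:104534689-104550343), best known from brain, had a level of 8.63, 9.27 and 8.06 CPM on ND against 7.09, 8.0 and 4.03 CPM on HFD. The diets did not overlap, by the small gap between ND replicate 3 and HFD replicate 2, and the log2 fold change was -0.44 (95% interval -1.08 to 0.20, adjusted p = 0.298 by edgeR's quasi-likelihood test). Relative to the mean of the 15 adipocyte markers Car7 was higher on HFD by 0.49 log2 units, without overlap, the opposite side from its CPM. That mean is lowered on HFD by Cfd, Retn, Adrb3 and Slc2a4, and the side was not tested without them. Car13 (ENSMUSG00000027555, chr3:14641727-14663002), a widely expressed enzyme, had 28.3, 25.9 and 17.6 CPM on ND against 17.4, 12.4 and 25.3 CPM on HFD. Its groups overlapped, with HFD replicate 3 on the level of the ND libraries, unlike Car3, and its log2 fold change was -0.38 (95% interval -1.06 to 0.29).

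At the cell surface, Car9 (ENSMUSG00000028463, chr4:43506966-43513729, plus strand), a transmembrane enzyme that is scarce in most healthy tissues, went from 7, 8 and 14 counts on ND to 65, 28 and 101 counts on HFD. These were 0.377, 0.464 and 0.696 CPM on ND against 3.55, 1.68 and 5.81 CPM on HFD. Every HFD library was above every ND library, with replicate 3 highest and replicate 2 lowest. The log2 fold change was 2.82 (SE 0.54, 95% interval 1.56 to 4.08), with an adjusted p-value of 0.0176 by edgeR's quasi-likelihood test. The sign was the same in all 17 settings tried and the threshold was passed in 13 of them. It was not passed on log2(FPKM + 1) without a filter (adjusted p = 0.102) and when ND replicate 1, ND replicate 2 or HFD replicate 1 was left out (adjusted p = 0.0762, 0.0757 and 0.0683). The summed macrophage markers followed the same order over the HFD libraries as Car9. Among the markers, Cd163 ran the other way, with 68.6, 73.8 and 50.6 CPM in HFD replicates 1 to 3. Relative to the mean log2 CPM of those 15 markers, Car9 was higher on HFD by 1.37 log2 units with no overlap. Their own log2 fold changes ran from -0.05 to 3.72, and those of 2 of the 15, Cd68 (3.72) and Adgre1 (2.91), were higher than that of Car9. The part of macrophages in the values of Car9 was not tested. The non-coding Gm12454 lies antisense over an exon of Car9, and since the sources do not say whether counting used strand, reads of the pair may not be told apart. Gm12454 had 12, 5 and 3 counts on ND against 9, 2 and 10 on HFD.

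Car4 (ENSMUSG00000000805, chr11:84957786-84966044, plus strand), which is anchored to the surface of capillary endothelium and some epithelia, was at 38.4, 36.6 and 43.0 CPM on ND against 39.1, 46.9 and 27.0 CPM on HFD. The groups overlapped and the log2 fold change was -0.06, with a 95% interval from -0.54 to 0.41 (adjusted p = 0.849 by edgeR's quasi-likelihood test). It was positive, at 0.11, without HFD replicate 3, the lowest library. The 10 endothelium markers (Aqp1 and Cdh5 with the highest mean CPM) summed to 2149 to 2481 CPM on ND against 1160 to 2266 CPM on HFD, also lowest in HFD replicate 3. Relative to them Car4 differed by 0.28 log2 units with overlap, and relative to the adipocyte markers by 0.89 log2 units without overlap. The adipocyte mean again includes Cfd, Retn, Adrb3 and Slc2a4, the markers with the lowest log2 fold changes of the 15.

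The secreted Car6 (ENSMUSG00000028972, chr4:150187015-150201332, minus strand), an enzyme of saliva and milk, was near the floor of the ND libraries with 1, 2 and 1 counts and had 10, 8 and 17 counts on HFD. These counts were too low for the filter. The ratio of the summed counts, scaled to library size, was 9.35 (95% exact interval 3.34 to 36.2, counting error only). When all genes were kept, edgeR's log2 fold change was 3.08 (SE 0.79, adjusted p = 0.0332). The HFD libraries stood in the same order as for Car9. Car8 (ENSMUSG00000041261, chr4:8143362-8239041, minus strand), which lacks catalytic activity and binds the inositol trisphosphate receptor, had 45, 21 and 40 counts on ND against 24, 55 and 14 on HFD. Its log2 fold change of -0.06 had an interval from -1.38 to 1.25, which at this depth leaves room for a difference of that size on either side.

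The 6 further family genes were counted for completeness, and none of the 3 that could be tested passed the threshold of edgeR's test. Of the 3, 2 had an unadjusted p under 0.05, as did 34% of all genes tested. In CPM the diets did not overlap in any of the 3, nor in 40.9% of all genes tested. Car1 (ENSMUSG00000027556), the abundant enzyme of red cells and colon, had 48, 58 and 68 counts on ND against 15, 19 and 2 on HFD. Its log2 fold change was -2.16 (SE 0.63, adjusted p = 0.0584 by edgeR's quasi-likelihood test), and it passed in 5 of 17 settings. The red cell markers, of which Hbb-bs and Hba-a1 had the highest mean CPM and Rhag was at 0 throughout, summed to 565 to 856 CPM on ND against 292 to 1036 CPM on HFD, and none of the 6 tested was called. The sum was highest in HFD replicate 2 and lowest in HFD replicate 3, which had 19 and 2 counts of Car1. The part of red cells in the values of Car1 was not tested. Car11, which has no catalytic activity, had 110, 64 and 72 counts on ND against 36, 37 and 21 on HFD (log2 fold change -1.29, SE 0.36, adjusted p = 0.0506), and passed in 7 of 17 settings. Car12, a transmembrane enzyme that is also known from tumors, had 3, 4 and 16 counts on ND against 16, 27 and 15 on HFD. Scaled to CPM, every HFD library was above every ND library, the nearest being 0.863 and 0.796 CPM, and the log2 fold change was 1.45 (95% interval -0.04 to 2.94). Car15, anchored to the cell surface, had 2, 2 and 1 counts on ND against 5, 5 and 7 on HFD, and Car10 had 2 counts on ND against 0 on HFD.

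A group of 4 of these genes lies side by side. Car13, Car1, Car3 and Car2 are the only protein-coding genes in 259 kb of chromosome 3 (14641727 to 14900770), with Car1 on the minus strand and the others on the plus strand. Car3 was the most abundant by far and its neighbors did not keep a fixed ratio to it. On the FPKM scale Car13 was 0.195%, 0.175% and 0.147% of Car3 on ND against 0.349%, 0.129% and 1.06% of Car3 on HFD. The share was highest in HFD replicate 3, where Car3 was lowest and Car13 was not. Car2 was 0.0216%, 0.0212% and 0.134% of Car3 on ND against 0.0479%, 0.0238% and 0.110% on HFD, so it was high both in ND replicate 3, with its many Car2 counts, and in HFD replicate 3, with its few Car3 counts. Outside the cluster, 4 other genes within 500 kb were tested, 1 of which was called, and their log2 fold changes ran from -0.37 to 2.80. Over all genes tested, edgeR's test called 9.85% higher and 6.04% lower.

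The genes that use or move what carbonic anhydrases make, and hypoxia-response genes, were taken from 3 written lists. Of 9 carboxylases and related enzymes that consume bicarbonate, 8 were tested, 6 were lower on HFD and none was higher, with a median log2 fold change of -1.38. Over all genes tested, edgeR's test called 6.04% lower. The 6 were the acetyl-CoA carboxylases Acaca and Acacb, the pyruvate carboxylase of mitochondria Pcx, Mccc1 and Mccc2 of leucine breakdown, and Pccb of propionate use. Acaca had 704, 2208 and 622 CPM on ND against 125, 171 and 77.3 CPM on HFD (log2 fold change -3.24, adjusted p = 0.0146 by edgeR's quasi-likelihood test). The others fell by 1.79 (Acacb), 1.64 (Pcx), 1.44 (Mccc1), 1.33 (Mccc2) and 1.31 (Pccb) on the log2 scale, with adjusted p-values from 0.0251 to 0.0456. Pcx had 1466, 2894 and 1339 CPM on ND against 582, 897 and 347 CPM on HFD. All 6 called carboxylases were highest in HFD replicate 2 and lowest in HFD replicate 3 among the HFD libraries. Car5b, Car3 and the summed adipocyte markers had the same order. The count of 6 depended on the libraries included: it was 0 without HFD replicate 1, 1 without any of the ND replicates, 5 without HFD replicate 3 and 7 without HFD replicate 2.

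Of 29 bicarbonate, proton and lactate transporters and their partners, 18 were tested, 1 was higher and 1 lower, with a median log2 fold change of 0.08. Over all genes tested, edgeR's test called 9.85% higher and 6.04% lower. Slc4a7, a sodium-bicarbonate cotransporter, had 36.7, 33.8 and 32.9 CPM on ND against 61.6, 73.8 and 72.6 CPM on HFD (log2 fold change 1.01, SE 0.12, adjusted p = 0.00624 by edgeR's quasi-likelihood test). The related Slc4a4 had 30.3, 23.8 and 49.4 CPM on ND against 16.2, 18.6 and 11.3 CPM on HFD (log2 fold change -1.17, SE 0.31, adjusted p = 0.0429), and when any library other than HFD replicate 2 was left out no transporter was called lower. Among the 11 that were not tested, 2 chosen after their values were seen, Slc26a3 and Slc9a3, each stood at 15.8 CPM in ND replicate 3 and at 0.162 CPM or less in the other 5 libraries, the library that also held most counts of Car2 and Car14.

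Of 15 other hypoxia-response genes, all were tested, 1 was higher and none was lower, with a median log2 fold change of -0.13 and a range from -1.36 to 0.71. Over all genes tested, edgeR's test called 9.85% higher and 6.04% lower. Mxi1, a transcriptional repressor, was the 1 called, with 27.4, 27.0 and 31.3 CPM on ND against 36.3, 40.1 and 38.8 CPM on HFD (log2 fold change 0.42, adjusted p = 0.0472 by edgeR's quasi-likelihood test). Without adjustment 6 of the 15 had p under 0.05, near the 34% of all genes tested. DESeq2 called 2 higher and 3 lower, and over all genes it called 10.7% higher and 8.42% lower. The log2 fold change of Car9, 2.82, lay above that of every gene on this list.

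**Figure D5:**
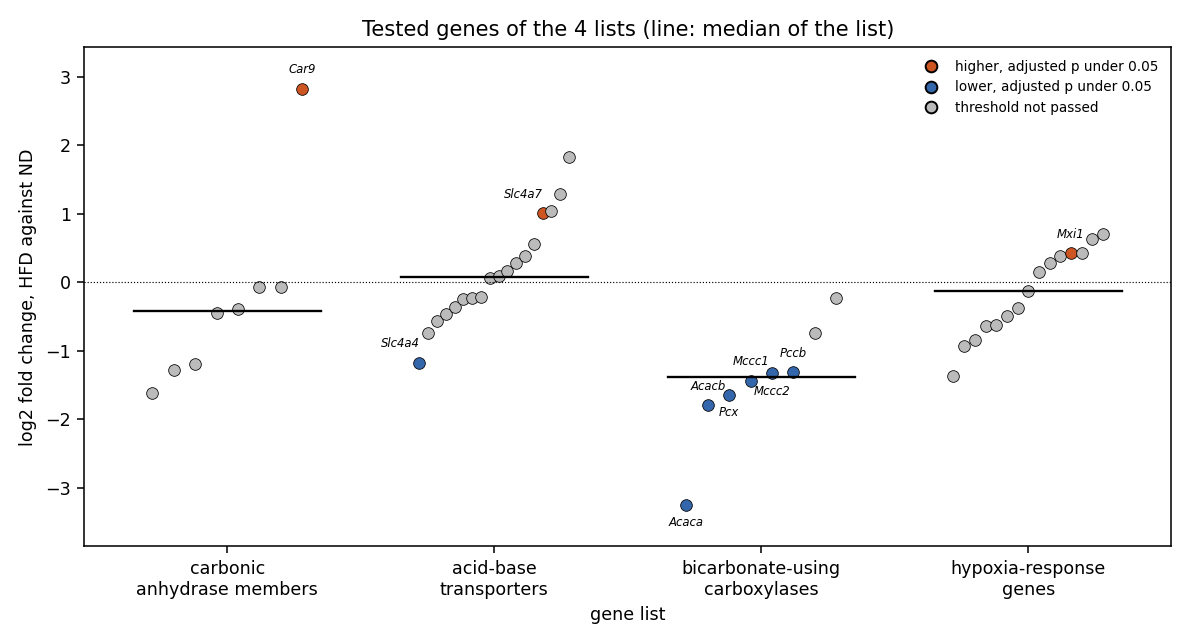
The edgeR log2 fold change of HFD against ND (vertical axis) for each tested gene of the 4 lists (horizontal axis), sorted within a list, with a black line at the list's median. Orange and blue points are genes called higher and lower, which are named, and 6 of the 8 carboxylases are blue with a median of -1.38.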

How the data were processed

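Gene expression in epididymal fat was measured by RNA-Seq in 3 libraries per diet, and groups came from the sample labels. The authors deposited raw counts per gene and, for the same genes, FPKM values, each of them a count over a gene length and a library factor, as checked on 11492 genes. The paper names GRCm38 with TopHat and Cufflinks, whereas the submitters' processing notes list HISAT2 2.0.5, featureCounts 1.5.0-p3, fastp, CASAVA 1.8, DESeq2 1.20.0 and a human build. The identifiers are of mouse, and strandedness is not given in the sources used here. GENCODE M21 (GRCm38) named 54409 of 54532 identifiers. Subcutaneous fat was not analysed here.

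Counts were tested with edgeR 4.0.16 in R 4.3.3 (quasi-likelihood F-test), using TMM normalization, filterByExpr, diet as the factor and Benjamini-Hochberg adjustment over 15751 genes, at a threshold of 0.05. Standard errors were derived from the F statistic. Family genes were ordered by FPKM, and marker sums are in CPM. Alternatives were DESeq2 1.42.0, limma-voom and limma 3.58.1 on log2(FPKM + 1) or log2(FPKM + 0.1) for genes at 0.5 FPKM or more in 3 libraries, other scalings and filters, a replicate block, and each library left out. The method was tested on simulated data. The family genes, the written lists and the markers were chosen with earlier results of these data known. Named genes are all family genes, the called genes of each list (up to 6 per direction) and the 2 markers of each type with the highest mean CPM. Cfd, Retn, Adrb3 and Slc2a4, the adipocyte markers called lower, are named as well. Mesothelium markers (Upk3b, Msln) had no call among 8. Of the epididymis (Rnase10, Adam7) and kidney (Aqp2, Slc34a1) markers, none had enough counts, the latter with 116 in all.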

Additional observations from a re-analysis of the deposited data

How the results depend on the processing

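Of the 8 tested genes of the family, Car9 was called and no gene was lower. DESeq2's Wald test gave 2 higher (Car6 passed as well) and 3 lower, keeping all genes gave 2 higher, log2(FPKM + 1) without a filter gave 0 higher, and leaving out 1 library at a time gave 0 to 2 higher and 0 to 2 lower. Of the other family results, the sign turned when 1 library was left out in Car4 (log2 fold changes from -0.25 to 0.11, positive without HFD replicate 3) and Car8 (from -0.82 to 0.28, with 0.16, 0.10 and 0.28 without ND replicate 1, HFD replicate 1 and HFD replicate 3). Of the carboxylases, 6 were lower, and 3 when all genes were kept, 0 with log2(FPKM + 1) without a filter, and 0 to 7 with 1 library left out. Of the transporters, DESeq2 called 3 higher and 2 lower. The 1 lower transporter was lost (0) with limma-voom, library size only, no filter and all 3 FPKM settings, and with 1 library left out there were 1 to 5 higher and 0 to 1 lower. Of the hypoxia-response genes, DESeq2 called 2 higher and 3 lower, and 1 was lower when all genes were kept. The 1 higher was lost (0) with limma-voom, DESeq2's size factors, library size only and all 3 FPKM settings, and with 1 library left out there were 0 to 2 higher and 0 to 3 lower. The causes were not tested. Over all genes, DESeq2 called 2033 higher and 1596 lower, and leaving out 1 library gave 337 to 2368 higher and 94 to 1572 lower. Counts near the floor limit Car6, Car14, Car5a, Car10 and Car15.

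The replicate number as a block gave 1 lower family gene in place of 0 (Car5b), 2 higher transporters in place of 1, 0 lower transporters in place of 1 and 0 higher hypoxia-response genes in place of 1. The sample labels do not say that the replicate numbers pair the samples. The deviations of same-numbered libraries correlated at -0.07, -0.04 and -0.002, which with 3 libraries a diet cannot exclude pairing.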
